A study of Mus musculus with 18 samples.

Results

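Transfer RNA trailers are the 3′ ends that are cut off when a precursor tRNA matures, and small RNAs made of them are called tRF-1. They were examined here in lung tissue of mice, as every listed small RNA that the authors typed tRF-1, whatever its parent tRNA. This rule gave 27 of the 193 listed tRNA-derived small RNAs (tsRNAs). Of these, 25 came from 11 nuclear tRNA genes with 9 anticodons and 2 from mitochondrial tRNA genes, so there were 13 parents.

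The study asked how mesenchymal stem cells, written BMSCs in the sample labels, affect tsRNA and mRNA in mice modelling chronic obstructive pulmonary disease (COPD), a smoke-related disease of the airways and alveoli. The control mice received phosphate-buffered saline (PBS). The COPD model mice breathed cigarette smoke, were given smoke extract into the abdomen and received PBS. The BMSC-treated mice, coded VC, were the same model given 4000000 BMSCs in 100 µl of PBS by tail vein. Each group had 3 tsRNA and 3 mRNA libraries of lung. The labels give no strain, age, sex or duration, and they leave unsaid whether the libraries of a group are different mice and whether tsRNA and mRNA libraries share mice. The p-values below therefore measure the spread between libraries, which may be technical.

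RNA polymerase III transcribes tRNA genes and stops at a run of T in the coding strand, so a primary tRNA transcript ends in a tail of U. The La protein, encoded by Ssb, binds that tail. RNase Z, encoded by Elac2 and Elac1, cuts after the last base of the mature tRNA and releases the trailer. Copies of a tRNA gene can make the same mature tRNA and still carry different trailers, so a trailer can name the gene copy it came from where a mature fragment cannot. The parents given here are those the authors assigned, and other matches of these short sequences in the genome were not analysed here. Mitochondrial tRNAs are cut out of long transcripts of the mitochondrial genome and have no such terminator.

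The precursor listed for each parent carried 40 bases after the mature tRNA. The 40 bases of 6 parents are printed 5′ to 3′ in the DNA letters of the deposited table, because the results below turn on their fragments. Capitals mark the first run of 4 or more T.
tRNA-iMet-CAT-1-1: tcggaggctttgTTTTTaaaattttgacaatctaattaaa
tRNA-iMet-CAT-1-7: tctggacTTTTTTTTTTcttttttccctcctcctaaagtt
tRNA-Thr-CGT-1-1: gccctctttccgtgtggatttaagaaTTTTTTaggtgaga
tRNA-Ser-AGA-2-2: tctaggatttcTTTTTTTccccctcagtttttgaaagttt
tRNA-Arg-ACG-1-3: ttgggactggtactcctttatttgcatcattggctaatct
chrM.tRNA9-GlyTCC: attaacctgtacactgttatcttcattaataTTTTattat

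The precursors of iMet-CAT-1-1 and iMet-CAT-1-7 held the same mature initiator methionine tRNA and different trailers. Of the 11 nuclear parents, 10 had such a T run, of 4 to 10 bases, starting 8 to 27 bases after the mature tRNA. The exception was Arg-ACG-1-3, the parent with the most counts, whose 40 bases held TTT at positions 17 and 21 and no longer run. The T run of the mitochondrial glycine parent began at position 32, beyond the end of its fragment.

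Every fragment began at the first base after the mature tRNA, and fragments of one parent differed in where they ended. The names give the length after the letter T, then the tRNA. Fragments of 5 parents are printed to show those ends, with the run of T at the 3′ end in capitals.
T15-iMet-CAT-1: tcggaggctttgTTT
T16-iMet-CAT-1: tcggaggctttgTTTT
T14-iMet-CAT-1-7: tctggacTTTTTTT
T29-Thr-CGT-1: gccctctttccgtgtggatttaagaaTTT
T30-Thr-CGT-1: gccctctttccgtgtggatttaagaaTTTT
T31-Thr-CGT-1: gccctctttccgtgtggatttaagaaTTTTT
T32-Thr-CGT-1: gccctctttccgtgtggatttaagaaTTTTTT
T33-Thr-CGT-1: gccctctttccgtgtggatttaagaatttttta
T14-Ser-AGA-2-2: tctaggatttcTTT
T15-Ser-AGA-2-2: tctaggatttcTTTT
T19-Arg-ACG-1-3: ttgggactggtactccTTT
T20-Arg-ACG-1-3: ttgggactggtactccTTTT
T22-Arg-ACG-1-3: ttgggactggtactcctttaTT
T23-Arg-ACG-1-3: ttgggactggtactcctttaTTT
T24-Arg-ACG-1-3: ttgggactggtactcctttaTTTT

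Of the 20 fragments whose parents had a T run, 16 ended inside it before its last T, 3 ended at its last T and 1 ended past it. The last was T33-Thr-CGT-1, the single member that ended in A, named here after its values were seen. In all, 26 of 27 trailer fragments ended in T and 23 ended in TTT. Of the 166 other tsRNAs, 51 ended in T and 8 in TTT. Trailer fragments were 14 to 33 bases long with a median of 19, against 14 to 40 bases with a median of 30 for the others. Their median GC content was 41.2%, against 50% for the others.

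Among the 27 sequences, 3 differed from the listed precursor by 1 base, each time at the last base and each time by a T. Positions are counted from 1 at the fragment's 5′ end, with the precursor's base first. T20-Arg-ACG-1-3 had A20T and T24-Arg-ACG-1-3 had G24T, so that each equalled the listed fragment 1 base shorter, T19 or T23, with 1 more T. T20 held 17.2% to 28.7% of the counts of the pair T19 and T20 over the 9 libraries. T24 held 5.81% to 13.9% of the counts of the pair T23 and T24. The mitochondrial tryptophan trailer had C19T, and no form 1 base shorter was listed. Whether these T were added to the RNA or arose in the libraries was not tested.

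The 2 mitochondrial members overlapped the next gene by position. In the RefSeq table of GRCm38.p6 the tryptophan tRNA gene TrnW is at 4950 to 5016 of chromosome MT, and its 19-base fragment covers 5017 to 5035. By position, 18 of those bases lie in TrnA, the alanine tRNA gene at 5018 to 5086. The strand of TrnA was not compared, so this overlap does not mean a shared RNA sequence. The glycine tRNA gene TrnG is at 9391 to 9458, and its 18-base fragment covers 9459 to 9476. These are the first 18 bases of ND3, a protein-coding gene of respiratory complex I at 9459 to 9806, so this member could equally be called the 5′ end of ND3. Positions of the nuclear parents were not analysed here.

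The tsRNA libraries held 440448 to 1742029 listed counts, out of totals of 893028 to 2679933 reads that the deposited counts and CPM (counts scaled to the reads of each library) imply. A count of 0 allows a level of up to 3 counts, which is 1.12 to 3.36 CPM here and covers counting error only. This level is called the floor below. Trailer fragments held 11856 of 10228889 listed counts, or 0.116%. Each listed tsRNA reached at least 20.1 CPM in some library, so the table holds no trailer that was lower everywhere. In the mRNA libraries the lung genes Sftpc (614.2 to 3249 FPKM) and Scgb1a1 (6546 to 2.485e+05 FPKM) were high, and the atrial muscle gene Myl7 ranged from 5.81 to 322.5 FPKM. The part of such muscle RNA in the mRNA values was not tested. Among the tsRNA libraries COPD model 3 stood apart, and results that rest on it are given with and without it.

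Summed trailer fragments were 375, 1070 and 495 CPM in control libraries 1 to 3, 580, 718 and 2817 CPM in the COPD model and 418, 1329 and 340 CPM in the BMSC-treated group. One library of each group stood above the rest of its group, and the groups overlapped. Those 3, control 2, COPD model 3 and BMSC-treated 2, had the smallest implied totals, of 1452115, 893028 and 1071951 reads. They held 1070 CPM or more of trailer fragments, and the other 6 held 718 CPM or less. In the same 3 libraries the 5′ fragments of nuclear glycine and glutamate tRNAs, the bulk of every library, made up 71.0% to 84.8% of listed counts, against 90.5% to 92.8% in the other 6. The part of library size and of these fragments in the trailer levels was not tested.

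Library COPD model 3 held the highest CPM of 25 of the 27 trailer fragments, and BMSC-treated 2 that of both mitochondrial ones. Among the 166 other tsRNAs, COPD model 3 was the highest library for 35, or 21.1%. In 12 of the 27 members COPD model 3 was the only library at 20 CPM or more, so that this library alone brought them over the level that all listed tsRNAs reach. This was so for 10 of the 166 others. Members listed through 1 high COPD model library had to be higher there, so directions over all members are descriptions and are not used as evidence for any comparison.

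Trailers made up 0.129% ± 0.107 of listed counts in the control group, 0.261% ± 0.269 in the COPD model and 0.136% ± 0.139 in the BMSC-treated group (SD, n = 3 each). The two-sided exact permutation test gave p = 0.5 for COPD model against control, p = 0.5 for BMSC-treated against COPD model and p = 0.9 for BMSC-treated against control, where the smallest p that 3 against 3 libraries allow is 0.1. Tested as 1 sum among 9 structural types with edgeR, trailers differed by a log2 fold change of 1.16 ± 0.57 (SE) in the COPD model against control, with an adjusted p of 0.590. The log2 fold change was -0.87 ± 0.57 in BMSC-treated against COPD model (adjusted p of 0.462) and 0.29 ± 0.57 in BMSC-treated against control (adjusted p of 0.820). In the 3 comparisons 0%, 11.1% and 0% of the 9 types passed, the single call being tRF-5a, a short 5′ fragment. Without COPD model 3 the first value was 0.24 and the second 0.05, with its sign turned. The third turned to -0.08 without control 3 and to -0.33 without BMSC-treated 2.

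In lung tissue as a whole, fewer cells of a type and less RNA per cell cannot be told apart in any of these values.

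The parent tRNA-Arg-ACG-1-3, an arginine tRNA gene, gave 62.2% of all trailer counts. Its 5 fragments summed to 269, 631 and 312 CPM in control libraries 1 to 3, 368, 441 and 1356 CPM in the COPD model and 302, 972 and 239 CPM in the BMSC-treated group. The groups overlapped. It was the leading parent in every library, with 48.1% of trailer counts in COPD model 3 and 58.9% to 73.1% in the other 8.

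T22-Arg-ACG-1-3, the most abundant member, was at 135, 309 and 154 CPM in control, 182, 206 and 684 CPM in the COPD model and 158, 521 and 123 CPM in the BMSC-treated group. By edgeR's quasi-likelihood test its log2 fold change was 0.91 ± 0.63 in COPD model against control, with an adjusted p of 0.931. For BMSC-treated against COPD model it was -0.33 ± 0.62, with an adjusted p of 0.905. In BMSC-treated against control it was 0.58 ± 0.62, with an adjusted p of 0.986. None of the 3 passed, the second turned to 0.40 without COPD model 3 and the third to -0.09 without BMSC-treated 2. T23-Arg-ACG-1-3 was at 66.0, 187 and 88.1 CPM in control, 103, 125 and 409 CPM in the COPD model and 67.2, 246 and 56.2 CPM in the BMSC-treated group. T19-Arg-ACG-1-3 was at 52.5, 80.6 and 47.0 CPM in control, 51.2, 76.7 and 148 CPM in the COPD model and 50.3, 133 and 43.8 CPM in the BMSC-treated group. In both, the same 3 small libraries were the highest of their groups, and neither passed in any comparison.

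The shares of the ends T22, T23 and T19 of this arginine trailer varied less between libraries than its summed CPM. T22 held 46.8% to 53.6% of its parent's counts over the 9 libraries, T23 22.2% to 30.1% and T19 10.9% to 19.5%. The shares of T22 were 49.5% ± 0.547 in control, 49.0% ± 1.87 in the COPD model and 52.4% ± 1.11 in the BMSC-treated group (SD, n = 3 each). Those of T23 were 27.4% ± 2.61, 28.8% ± 1.16 and 23.7% ± 1.55 in the same order. The BMSC-treated libraries all had a larger share of T22 than the COPD model libraries, and a smaller share of T23. Shares of one parent depend on each other. Other ends were separated too. T24-Arg-ACG-1-3 held 3.41% to 4.87% in the COPD model and 2.49% to 2.84% in the BMSC-treated group. T32-Thr-CGT-1 held 22.6% to 25.5% of its parent in the COPD model and 30.3% to 31.8% in control. How many ends were separated in each comparison was not counted, and no test of this was run.

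The Ala-TGC-3-1 trailer showed a like constancy of its ends. T20-Ala-TGC-3 held 69.6% to 78.8% of its parent's counts in every library, and T21-Ala-TGC-3 the rest. For the Thr-CGT-1-1 trailer T31 led in every library except control 1, BMSC-treated 1 and BMSC-treated 3. Those libraries had the fewest counts of this trailer, 36, 13 and 50. Of its 1401 counts T31 held 33.2%, T32 26.6%, T30 24.7%, T29 11.7% and T33 3.78%. T29 to T32 end at successive bases of the T run and T33 at the A after it, and all share the same first 29 bases.

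The trailer of tRNA-iMet-CAT-1-1, one of the genes of the initiator tRNA that starts translation, was higher in the COPD model. Its 2 fragments summed to 14.9, 19.3 and 17.5 CPM in control libraries 1 to 3, 49.5, 96.8 and 175 CPM in the COPD model and 24.4, 46.6 and 8.68 CPM in the BMSC-treated group. Every COPD model library lay above every library of the other groups. Counted within the trailers alone, this parent made up 3.98%, 1.80% and 3.54% of trailer counts in control. In the COPD model it made up 8.53%, 13.5% and 6.20%, and in the BMSC-treated group 5.84%, 3.51% and 2.56%. The COPD model overlapped neither other group on this scale, and COPD model 3 was the lowest of its group. Control 2 was the lowest of its own, and the part of library size in these shares was not tested. Such a separation in shares was not particular to this parent. Ser-AGA-2-2 made up 1.57%, 1.16% and 1.21% of trailer counts in control and 2.06%, 1.58% and 2.74% in the COPD model. In the BMSC-treated group it made up 0.674%, 0.912% and 0.444%. Each mitochondrial parent had a smaller share in every COPD model library than in any library of the other groups.

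T15-iMet-CAT-1 was at 4.97, 12.4 and 9.70 CPM in control, 24.5, 51.5 and 94.1 CPM in the COPD model and 10.8, 21.5 and 1.89 CPM in the BMSC-treated group. All 3 COPD model libraries were above all control libraries. Its log2 fold change in COPD model against control was 2.71 ± 0.71 by edgeR's quasi-likelihood test, with an adjusted p of 0.0269 over the 191 tsRNAs tested. T16-iMet-CAT-1 was at 9.95, 6.89 and 7.84 CPM in control, 25.04, 45.3 and 80.6 CPM in the COPD model and 13.6, 25.2 and 6.79 CPM in the BMSC-treated group. Its log2 fold change in COPD model against control was 2.57 ± 0.71 (adjusted p of 0.0300). These were the only 2 calls among all tsRNAs tested in this comparison, which is 1.05% of 191. They are nested forms of 1 trailer, with T16 holding 1 more T, and are not independent of each other.

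The size of this difference held under the alternatives tried and its call did not. Over the 16 alternatives the log2 fold change was 2.26 to 3.03 for T15 and 1.90 to 2.91 for T16, positive in each. The adjusted p ran from 0.00975 to 0.514 for T15 and from 0.0160 to 0.569 for T16, and 8 of the 16 passed for each. Without COPD model 3 the values were 2.26 for T15 and 2.18 for T16, each with an adjusted p of 0.308. Without control 1, 2 or 3 the adjusted p was 0.274, 0.0957 and 0.514 for T15, and 0.173, 0.292 and 0.569 for T16. With DESeq2 size factors in edgeR it was 0.0705 for both, and with implied library totals 0.0894 for both. DESeq2's Wald test called both, with 0.0338 for T15 and 0.0162 for T16.

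In BMSC-treated against COPD model T15-iMet-CAT-1 had a log2 fold change of -2.29 ± 0.70 (edgeR, adjusted p of 0.0711), and all 3 BMSC-treated libraries were below all COPD model libraries. T16-iMet-CAT-1 had -1.63 ± 0.69 (edgeR, adjusted p of 0.280), with overlapping groups. Neither passed with all 9 libraries. T15 had -1.84 without COPD model 3 (adjusted p of 0.603) and passed without control 2 (adjusted p of 0.0419) and without BMSC-treated 2 (adjusted p of 0.0255). It also passed without the smallest library of each group, COPD model 3 and BMSC-treated 2 among them, with -2.36 (adjusted p of 0.0169). That setting was chosen after seeing the data, and 17 of all 184 tsRNAs were called in it. In BMSC-treated against control the log2 fold changes were 0.42 and 0.93, and neither passed. The first 2 comparisons share the COPD model libraries, so their opposite signs are not independent.

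The other gene copy, tRNA-iMet-CAT-1-7, gave T14-iMet-CAT-1-7. It was at 3.62, 15.2 and 3.36 CPM in control, 3.98, 4.63 and 24.6 CPM in the COPD model and 1.41, 17.7 and 2.64 CPM in the BMSC-treated group. The groups overlapped, and its log2 fold change in COPD model against control was 0.65 ± 0.90 (edgeR, adjusted p of 0.931). The difference between the trailers of the 2 copies was not tested. From the mature initiator tRNA, which these copies share, 3 5′ fragments of 31, 32 and 33 bases were listed. Together they were at 163, 134 and 215 CPM in control, 144.5, 218 and 142 CPM in the COPD model and 167, 95.2 and 244 CPM in the BMSC-treated group. Their log2 fold changes in COPD model against control were -0.31, 0.45 and 1.41, and none passed. In BMSC-treated against COPD model they were 0.73, -0.51 and -1.64 in the same order, and none passed. Their mean levels over the 9 libraries were 115, 42.4 and 12.1 CPM, so the sum mostly reflects the 31-base fragment. Trailers held 20.2% of the counts listed for the initiator tRNA.

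The Thr-CGT-1-1 trailer, from a threonine tRNA gene, gave the second largest share, 11.8% of trailer counts, and was highest by far in 1 library. Its 5 fragments summed to 16.3, 152 and 56.7 CPM in control, 52.9, 43.2 and 756 CPM in the COPD model and 6.11, 72.8 and 18.9 CPM in the BMSC-treated group. COPD model 3 lay far above the other 8 libraries, and COPD model 1 and 2 lay within the control range. No other listed tsRNA came from this isotype.

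T30-Thr-CGT-1 was at 4.97, 29.6 and 12.3 CPM in control, 10.8, 10.3 and 212 CPM in the COPD model and 1.88, 12.1 and 5.28 CPM in the BMSC-treated group. Its log2 fold change was 2.36 ± 0.81 in COPD model against control (edgeR, adjusted p of 0.287) and turned to -0.26 without COPD model 3. It passed without COPD model 1 (adjusted p of 0.0258) or COPD model 2 (adjusted p of 0.0275), which leave COPD model 3 in the fit. In BMSC-treated against COPD model it was -3.38 ± 0.87 (edgeR, adjusted p of 0.0538), the smallest p of any tsRNA in that comparison, and -0.76 without COPD model 3 (adjusted p of 0.860). It passed without control 1, control 2, COPD model 1, COPD model 2 or BMSC-treated 2, with adjusted p of 0.0205, 0.0419, 0.000898, 0.000244 and 0.0112. T31-Thr-CGT-1 was at 3.62, 51.0 and 20.5 CPM in control, 21.1, 15.4 and 244 CPM in the COPD model and 1.88, 25.2 and 4.53 CPM in the BMSC-treated group. Its log2 fold change in BMSC-treated against COPD model was -3.07 ± 1.04 (edgeR, adjusted p of 0.211), and -0.96 without COPD model 3. It passed without control 1, COPD model 1, COPD model 2 or BMSC-treated 2, with adjusted p of 0.0226, 0.00236, 0.000677 and 0.00382. It also passed without the smallest library of each group, COPD model 3 among them, with -2.13 (adjusted p of 0.0339). That setting was chosen after seeing the data, and 17 of all 184 tsRNAs were called in it. For both, COPD model 3 was high and the remaining libraries overlapped. T32-Thr-CGT-1 was at 4.97, 48.2 and 17.2 CPM in control, 11.9, 9.78 and 193 CPM in the COPD model and 2.35, 21.5 and 2.26 CPM in the BMSC-treated group, again with COPD model 3 far above the rest.

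The Ser-AGA-2-2 trailer, from a serine tRNA gene, was near the floor of 3 counts in several libraries. T14-Ser-AGA-2-2 was at 2.26, 4.13 and 1.87 CPM in control, 3.41, 9.78 and 34.7 CPM in the COPD model and 0.940, 8.40 and 1.13 CPM in the BMSC-treated group. Its log2 fold change in COPD model against control was 2.50 ± 1.004 (edgeR, adjusted p of 0.488), and 1.44 without COPD model 3. T15-Ser-AGA-2-2 was at 3.62, 8.26 and 4.10 CPM in control, 8.54, 1.54 and 42.6 CPM in the COPD model and 1.88, 3.73 and 0.377 CPM in the BMSC-treated group. Its log2 fold change in BMSC-treated against COPD model was -3.04 ± 1.02 (edgeR, adjusted p of 0.119), and -1.52 without COPD model 3. It passed without COPD model 2 (adjusted p of 0.0294). COPD model 3 was the only library in which either serine fragment reached 20 CPM, so both were listed through the group where they were high, and that pass is no support for a difference. With all libraries neither passed, and the groups overlapped for both. The 1 other fragment listed for Ser-AGA, a 5′ fragment shared with Ser-TGA, had -0.85 in COPD model against control and 0.66 in BMSC-treated against COPD model, and neither passed.

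The other nuclear parents followed the pattern of the sum, with COPD model 3 highest. The Ala-TGC-3-1 trailer was at 12.8 to 48.2 CPM in 8 libraries and 116 CPM in COPD model 3, and it held 80.5% of the counts listed for Ala-TGC. The Ala-CGC-2-1 trailer was at 15.1 to 47.6 CPM and 85.1 CPM in COPD model 3, and it held 7.61% of the counts for Ala-CGC. The Arg-ACG-3-1 trailer was at 5.64 to 50.3 CPM and 109 CPM in COPD model 3. For both Arg-ACG parents, Asn-GTT, Ile-AAT, Thr-CGT and mitochondrial glycine, no fragment of the mature tRNA was listed. The trailers of Ile-AAT-1-2 and Asn-GTT-3-8 stayed at 9.33 CPM or below outside COPD model 3, where they were at 21.3 and 23.5 CPM. T16-Cys-GCA-3-3, outside the naming rule and the least abundant member, had 0 to 4 counts in 8 libraries and 18 counts, or 20.2 CPM, in COPD model 3. It and T17-Arg-ACG-3 did not pass the filter on low counts and were not tested.

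The mitochondrial trailers went the other way within the trailer pool. Together they made up 5.54%, 7.40% and 6.79% of trailer counts in control, 4.61%, 1.86% and 1.91% in the COPD model and 8.09%, 6.46% and 8.89% in the BMSC-treated group. All 3 COPD model libraries lay below all others on this scale, which falls where nuclear trailers rise. In CPM the groups overlapped. The tryptophan trailer was at 14.02, 55.1 and 21.6 CPM in control, 19.9, 7.72 and 27.99 CPM in the COPD model and 23.0, 56.0 and 21.9 CPM in the BMSC-treated group, and did not pass in any comparison. The glycine trailer was at 6.78, 24.1 and 11.9 CPM in control, 6.83, 5.66 and 25.8 CPM in the COPD model and 10.8, 29.9 and 8.30 CPM in the BMSC-treated group, and did not pass either.

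By length, the members fell into 10 of 14 to 17 bases, 12 of 18 to 24 and 5 of 29 to 33, the last all from Thr-CGT-1-1. These classes were set after the lengths were seen. The shortest class made up 9.64%, 10.7% and 10.4% of trailer counts in control, 13.9%, 18.6% and 16.0% in the COPD model and 9.21%, 8.14% and 7% in the BMSC-treated group. The COPD model lay above both other groups with no overlap. Without the 2 iMet-CAT-1-1 fragments the shares were 5.66%, 8.94% and 6.86% in control, 5.39%, 5.09% and 9.78% in the COPD model and 3.37%, 4.63% and 4.44% in the BMSC-treated group. The COPD model and control then overlapped. The longest class made up 26.8% in COPD model 3 and 1.46% to 14.2% in the other libraries.

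Over the 25 members tested in COPD model against control, 23 had a log2 fold change above 0 and the 2 mitochondrial ones below, with a median of 1.31 against 0.21 over all 191 tsRNAs. At an unadjusted p under 0.05 there were 7 of them, all higher, among 10 of all 191, and 2 passed after adjustment. Of the 7, T29-Thr-CGT-1 and T14-Ser-AGA-2-2 reached 20 CPM only in COPD model 3. They were listed through the group where they were high, so the count of 7 is no support for a difference. The number of members passing became 0 without control 1, control 2, control 3 or COPD model 3, 3 without COPD model 1 and 4 without COPD model 2. In each of these fits no other tsRNA passed. The mean CPM of 25 of the 27 members was higher in the COPD model than in control, and that of 12 was without COPD model 3. In 2 members, both of iMet-CAT-1-1, the CPM of all COPD model libraries lay above control. Over all 193 tsRNAs this was so for 5.18%.

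In BMSC-treated against COPD model edgeR called 0 of the 25 members and 0% of all tsRNAs tested, DESeq2 called 0 of 27 members, and 10 members (edgeR) or 9 (DESeq2) were lower at an unadjusted p under 0.05, among 25 of all tsRNAs by each tool. The median log2 fold change was -1.27, against -0.10 over all tsRNAs. Among the 10 by edgeR, T15-Asn-GTT-3-8, T29-Thr-CGT-1 and both Ser-AGA-2-2 fragments reached 20 CPM only in COPD model 3. Such members were listed through the group where they were high. Neither that count nor the median is therefore support for a difference. The CPM of all BMSC-treated libraries lay below the COPD model in 3 of 27 members, T15-iMet-CAT-1, T15-Asn-GTT-3-8 and T16-Cys-GCA-3-3. This was so for 12.4% of all tsRNAs. T15-Asn-GTT-3-8 and T16-Cys-GCA-3-3 reached 20 CPM only in COPD model 3. Both were thus listed through the group where they were high, and their separation is no support for a difference. For T15-Asn-GTT-3-8 it was 3.73 CPM (4 counts) against 3.98 CPM (7 counts). The number called became 3 without control 1, 2 without control 2, 3 without COPD model 1, 4 without COPD model 2 and 4 without BMSC-treated 2. Over all 191 or 192 tsRNAs tested in these fits the calls were 4, 4, 3, 4 and 4 in the same order. The low level of T16-Cys-GCA-3-3 rests on 0 or 1 count per BMSC-treated library.

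In BMSC-treated against control edgeR and DESeq2 called 0 members, and 0 were at an unadjusted p under 0.05 by either. In the same comparison 0.524% of the 191 tsRNAs were called by edgeR. The median log2 fold change was 0.09 for the members and 0.09 for all tsRNAs. The members of smallest p were T16-iMet-CAT-1 with 0.93 ± 0.70, T15-Ser-AGA-2-2 with -1.33 ± 1.02, T32-Thr-CGT-1 with -1.30 ± 1.04 and T30-Thr-CGT-1 with -1.02 ± 0.83, all with an adjusted p of 0.986. The standard errors of the 25 members ran from 0.61 to 1.31 on the log2 scale in this comparison. A call needs a difference well above its standard error. Differences of that size, and larger ones short of a call, were thus not detectable.

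The mRNA of genes that make and process precursor tRNAs or degrade small RNA was looked at in 5 lists with 56 genes tested. The lists were RNA polymerase III transcription, 3′ trailer binding and cleavage, 5′ leader cleavage, splicing and export of precursor tRNA, and 3′ decay of small RNA. None was called by limma in any comparison, where 0.0765% of 11765 genes were called in COPD model against control, 0.127% in BMSC-treated against COPD model and 0% in BMSC-treated against control. At an unadjusted p under 0.05 there were 2 genes higher in the first comparison, 3 lower in the second and 0 in the third. The median over all genes was itself shifted in this table, with log2 differences of 0.66, -0.75 and -0.10 in the 3 comparisons, and 0.14, -0.16 and -0.01 after rescaling without Scgb1a1 and mitochondrial genes. The median over the 56 genes was 0.64, -0.76 and -0.11. Fold changes here are on the scale log2(FPKM + 1).

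Among the trailer-cleaving and trailer-binding genes, Elac2, the long form of RNase Z, was at 0.375, 0.919 and 1.86 FPKM in control, 1.81, 3.45 and 4.32 FPKM in the COPD model and 0.286, 1.07 and 1.81 FPKM in the BMSC-treated group. COPD model and control overlapped. Its difference in COPD model against control was 1.05 ± 0.48 (limma, adjusted p of 0.514), and 0.64 after rescaling. Against the COPD model, the BMSC-treated group differed by -1.05 ± 0.48 (limma, adjusted p of 0.375), and -0.58 after rescaling. Elac1, the short form, differed by 0.69 ± 0.57 and -0.93 ± 0.57 in the same comparisons, or 0.16 and -0.41 after rescaling, and neither passed.

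Ssb, which encodes La, was at 21.4, 42.7 and 59.2 FPKM in control, 52.1, 65.3 and 87.0 FPKM in the COPD model and 11.4, 41.3 and 51.9 FPKM in the BMSC-treated group, with a difference of 0.80 ± 0.79 in COPD model against control (limma, adjusted p of 0.532) and 0.05 after rescaling. In BMSC-treated against COPD model the difference was -1.16 ± 0.79 (limma, adjusted p of 0.376), and -0.24 after rescaling. The highest BMSC-treated library, at 51.9 FPKM, lay just below the lowest COPD model library, at 52.1 FPKM. How many of all genes were separated in this way was not counted. Maf1, a repressor of RNA polymerase III, differed by 0.56 ± 0.69 and -0.66 ± 0.69, both short of the threshold, and by -0.09 and 0.11 after rescaling, with both signs turned. Rpp38, a subunit of RNase P, which cuts the 5′ leader, was the other gene at an unadjusted p under 0.05 in COPD model against control, with 1.28 ± 0.64 (0.75 after rescaling). The 3 in BMSC-treated against COPD model were Elac2, Brf2 with -0.86 ± 0.38, a factor that recruits RNA polymerase III, and Polr3g with -0.99 ± 0.46, a subunit of it. After rescaling Brf2 was at -0.65 and Polr3g at -0.58. None of these genes passed the adjusted threshold.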

How the data were processed

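The authors deposited tsRNA counts without scaling, as whole reads per tsRNA, together with CPM of the same tsRNAs. The mRNA table the authors deposited was in FPKM and gives no depth. The submitters' processing notes name FastQC, cutadapt, StringTie, Bowtie and mm10. Versions, roles and the treatment of reads that match several places are not stated in any source used. Per the labels' protocols the small RNA was pretreated to remove modifications before library construction. Sequences, types and precursors were those of the deposited table. The members, lists and tests were chosen with earlier results of these data known.

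Library totals were counts divided by CPM. edgeR 4.0.16 (R 4.3.3, robust quasi-likelihood, TMM, filterByExpr, listed counts as library size, all 9 libraries in one fit) tested 191 tsRNAs (common biological coefficient of variation 0.545); standard errors are the absolute log2 fold change over the root of F. limma 3.58.1 tested log2(FPKM + 1), for genes at 1 FPKM or more in 3 libraries. A call was a Benjamini-Hochberg adjusted p under 0.05. DESeq2 1.42.0 was an alternative. Shares were compared in Python 3.11.15. Fits were first tested on simulated data. The naming rule took the 25 members of highest mean CPM and every called one, some given only within the sum of their parent. Full statistics were given for the 4 of smallest p per comparison and the most abundant. From the mRNA lists, Ssb, Elac2, Elac1 and Maf1 were named, with up to 2 genes of smallest p per list. Same-numbered libraries of the BMSC-treated and control groups deviated together over all tsRNAs for numbers 1 and 2 (correlations 0.716 and 0.725). For number 3 the correlation was 0.179, and -0.200 over the trailers alone. The labels state no pairing, so the main fits are unpaired, and a block for the replicate number was an alternative. COPD model libraries deviated with same-numbered libraries of the other groups over all tsRNAs for number 1 only.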

Additional observations from a re-analysis of the deposited data

How the results depend on the processing

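Alternatives were other size factors, library totals, filters, pseudocounts, tests and sets of libraries, plus 1 chosen after seeing the data that left out the smallest library of each group. The 2 trailer calls in COPD model against control became 0 with DESeq2 size factors, with implied library totals, with the replicate block and without the smallest libraries, and ranged from 0 to 4 when 1 library was left out. No other tsRNA was called in any of these settings. In BMSC-treated against COPD model the 0 calls became 1 with the replicate block (T31-Thr-CGT-1, -3.19, adjusted p of 0.0107), the only call among all 191 tsRNAs. Without the smallest libraries 2 of 19 members were called, where 17 of all 184 tsRNAs were called. With 1 library left out calls ranged from 0 to 4. They were 3 without control 1, 2 without control 2, 3 without COPD model 1, 4 without COPD model 2 and 4 without BMSC-treated 2. Over all tsRNAs the calls in these fits were 4, 4, 3, 4 and 4 in the same order. In BMSC-treated against control calls were 0 throughout, with the replicate block too. Correlations of same-numbered deviations of the COPD model with control were 0.444, -0.603 and -0.539. The log2 fold change of the sum ranged from 0.24 to 1.53, from -1.48 to 0.0499 and from -0.33 to 0.66 in the 3 comparisons when 1 library was left out. The share difference in percentage points ranged from -0.0233 to 0.218, from -0.211 to 0.0303 and from -0.0734 to 0.0682, and the third was -0.0122 without the smallest libraries. T30-Thr-CGT-1 in COPD model against control ranged from -0.26 to 2.99, and T22-Arg-ACG-1-3 from -0.99 to 0.40 in BMSC-treated against COPD model and from -0.0914 to 0.85 in BMSC-treated against control. mRNA calls in the lists were 0 in all settings. The cause was not tested. With 1 library left out, a group of 2 was assumed to vary like the others. The depth limits members under about 3 CPM.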
